A study of Arabidopsis thaliana with 20 samples.

Results

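The net change in transcript levels over the first 5 days of synchronous flower formation was taken from all 20 two-colour arrays of the series, so all 20 of 20 arrays were used. Each array compared 2 consecutive days, and the 5 intervals from day 0 to day 5 were added within each of 4 tissue sets. This gave 4 sums of day 5 over day 0, one per set, for every feature, where a feature is a gene (its probes averaged) or a probe with no gene name. Arrays and features for the net change over all features were not chosen by measured values, with 1 exception. Probes whose deposited value stood at exactly 2 or -2 on any array were left out. The gene lists and members described below were chosen with earlier results of these data known, so their counts and medians are descriptions. The plants were Arabidopsis thaliana that carry mutations in AP1 and CAL and the transgene 35S:AP1-GR, in which the 35S promoter drives AP1 joined to a steroid receptor domain. All 6 time points shared this genotype, and inflorescences had received a single kind of treatment, 1 µM dexamethasone with ethanol and the wetting agent Silwet L-77, just after bolting. Day 0 was the only reference, and no untreated or mock-treated set was analysed here, so the effect of AP1 activation cannot be told apart from age, treatment or time. Tissue close to the inflorescence surface was pooled from about 25 plants per time point, which limits each value to a mean over many meristems and buds. The transgene is expressed under a broadly active promoter, which limits the plants as a model of where AP1 normally acts.

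AP1 and CAL are closely related MADS-box transcription factors that direct young meristems to become flowers, and plants lacking both pile up inflorescence-like meristems in a cauliflower-like head. Hormone binding lets the fusion protein enter the nucleus, after which the stalled meristems start flowers together. In the first days a flower meristem is set apart from the inflorescence, then sepals, petals, stamens and carpels are initiated, and later each organ makes its own tissues. Because whole inflorescence surfaces were sampled, fewer cells of a type and less RNA per cell cannot be told apart in any value below. A ratio between days also does not show whether a marker is present, only whether its level changed.

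The changes are given as log10 ratios of day 5 over day 0, so 1 stands for 10-fold. The base was read from the values, which stop at 2 and -2, or 100-fold on that scale. The direction is likely, not certain: the ratios were taken as Cy5 over Cy3, and with the opposite order every rise would be a fall and every fall a rise. The median log ratio of an array was at lowest -0.0087 and at highest 0.0075, and the interquartile range 0.093 to 0.18. Of 30194 probes, 1737 stood at a limit on some array and were left out. The sets carry the dye effect once each, with one sign in sets 1 and 3 and the other in sets 2 and 4, so it cancels in the mean of the 4 sums. A separate dye coefficient passed the test for 7178 features over the 20 arrays, and for 0 features in limma's fit of a dye term to the 4 sums, where 1989 had an unadjusted p under 0.05.

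By day 5, 1693 of 27073 features differed from day 0, 884 higher and 809 lower, which is 6.25% of those tested, 3.27% higher and 2.99% lower. The changed features with a gene name numbered 874 of 16241, or 5.38%, with 444 higher (2.73%) and 430 lower (2.65%). Rises reached further than falls: 71 features rose and 19 fell by at least 10-fold, and 750 rose and 653 fell by at least 2-fold. The median rise was 2.90-fold and the median fall 2.53-fold, while the smallest change that passed was 1.64-fold. Calls are limma's moderated test of the 4 sums against 0, two-sided, with Benjamini-Hochberg adjustment over all features and a threshold of 0.05. All 1686 changed features with 4 complete sums had the same sign in every set, which the test favours, and the other 7 lacked a set. The test rests on 4 values per feature: without set 1, 2, 3 or 4 in turn 804, 787, 907 and 1171 features passed, and 766 passed as the sum of interval coefficients with the tissue set as a block.

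The sets were compared by their medians and correlations. The median of the features that rose was 0.45, 0.43, 0.48 and 0.48 in sets 1 to 4, and that of the features that fell was -0.42, -0.41, -0.43 and -0.36. These features were called from the same 4 sums, and the test favours features whose sums are alike, so the medians are a description. Across all features, pairs of sets correlated between 0.329 for sets 1 and 4 and 0.492 for sets 1 and 3. This correlation is a description across features, which are not independent and share their arrays. The median net change of all features was -0.0031, with quartiles of -0.08 and 0.07.

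**Figure D1:**
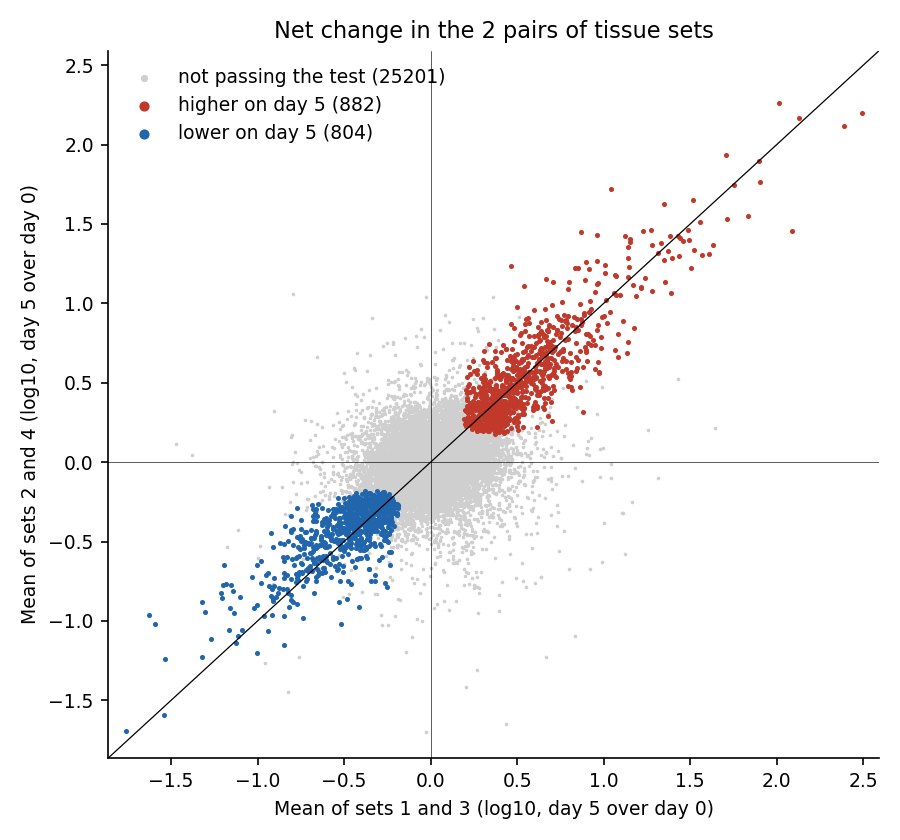
Net change (log10, day 5 over day 0) averaged over sets 1 and 3 on the horizontal axis and over sets 2 and 4 on the vertical axis, which carry opposite dye effects. Each point is 1 feature with 4 complete sums, red where it rose (882), blue where it fell (804) and grey otherwise, and the diagonal marks equal change. The changed features lie in the upper right and lower left corners along the diagonal.

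Of the genes with a name, AT2G20870 had the largest rise and measured 1.93, 1.89, 3.05 and 2.50 in sets 1 to 4. It rose 221-fold on average (2.34 ± 0.55, SD, n = 4, adjusted p = 0.00151), and sets 3 and 4 lay above sets 1 and 2. AT5G22430 measured 1.97, 1.69, 2.81 and 2.54 and rose 179-fold (2.25 ± 0.51, adjusted p = 0.00141), again highest in sets 3 and 4. AT5G55720 was more even, with sums of 2.16, 2.09, 2.09 and 2.24, a 140-fold rise (2.15 ± 0.073, adjusted p = 7.99e-05). REM22 (AT3G17010), a B3-domain transcription factor gene of the REM family that is named for its expression in reproductive meristems, measured 2.16, 2.41, 1.87 and 2.10. Its 137-fold rise (2.14 ± 0.22, adjusted p = 3.01e-04) was highest in set 2, which was not among the higher sets for AT2G20870 and AT5G22430. The other 8 of the 12 largest rises lay between 26.7-fold and 68.0-fold. They were AT4G16270, RXF26 (AT1G58430), a gene of the GDSL family of lipases and esterases, AT2G42990, MUTE, AT1G15260, AT5G16030, AT2G04570 and AT5G57720.

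The large rises were reached on different days. REM22 and AT5G57720 gained most before day 3: their interval changes from day 0 on were 0.61, 0.74, 0.51, 0.17 and 0.10, and 0.60, 0.53, 0.19, 0.08 and 0.02. AT5G22430 made its largest step, 0.93, from day 0 to day 1, and a later one of 0.51 from day 4 to day 5. AT2G20870, AT5G55720, RXF26, AT2G42990 and AT2G04570 gained most at the end, with 0.92, 0.95, 0.90, 0.69 and 0.70 from day 4 to day 5. AT1G15260 measured -0.02 and 0.06 in the first 2 intervals and then rose by 0.58, 0.51 and 0.36. AT5G16030 rose at a nearly even pace until day 4, by 0.32, 0.28, 0.46 and 0.33.

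The largest fall among named genes was that of AT1G27020, which measured -1.43, -1.08, -1.64 and -1.40 in sets 1 to 4 and was 24.3-fold lower on day 5 (-1.39 ± 0.23, adjusted p = 8.31e-04). AT4G22490 was 19.7-fold lower but less even, from -0.68 in set 2 to -1.82 in set 3 (-1.29 ± 0.47, adjusted p = 0.0066). AT3G13130 measured -1.33, -1.30, -1.21 and -0.93, a 15.6-fold fall (-1.19 ± 0.18, adjusted p = 8.31e-04), and its smallest fall was in set 4. The 12 largest falls included 3 regulators of known function, AGL72, AGL71 and PUCHI, which are described below with their groups. The other 6 were AT1G19540, AT1G80580, AT1G31710, AT2G04063, AT1G31750 and AT5G28000, between 8.95-fold and 12.6-fold lower. AT1G31710 was weak in set 3, at -0.35 against -1.34, -1.11 and -1.19 in the others, and no longer passed without set 1, 2 or 4 (adjusted p = 0.0643, 0.0665 and 0.0633). AT2G04063 and AT1G31750 were weakest in set 4, at -0.52 and -0.43. AT1G80580 differed from the other falls in its course: it measured 0.19 from day 0 to day 1 and then fell by 0.49 and 0.44 in the last 2 intervals.

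**Figure D2:**
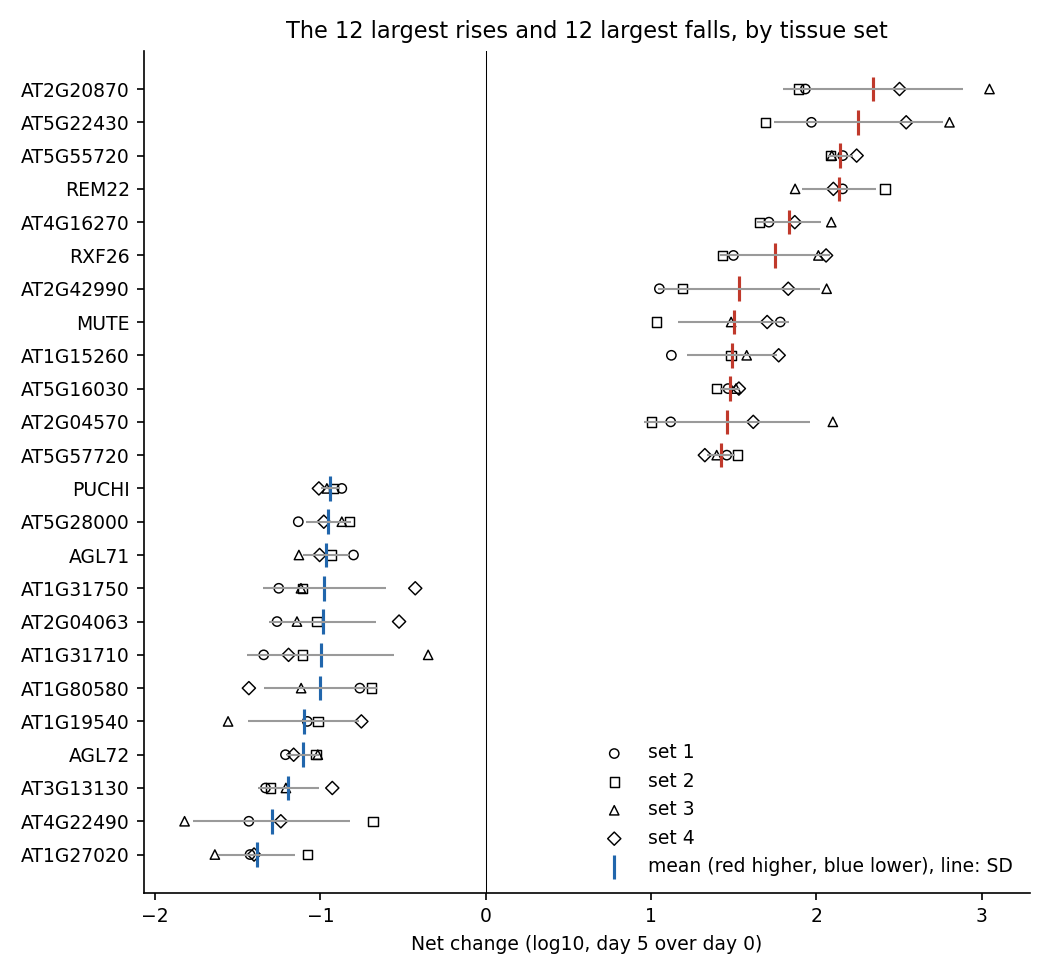
The 12 largest rises and 12 largest falls among named genes, with net change (log10, day 5 over day 0) on the horizontal axis. Open symbols are the 4 tissue sets, the coloured tick is their mean and the grey line their SD. Genes were required to have 1 sign in every set, so all symbols of a gene lie on 1 side of 0. The rises span from 1.43 to 2.34 and the falls from -0.94 to -1.39 on average.

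Most of the few measured genes known from inflorescence meristems were lower on day 5. On a list for inflorescence and flowering time, only 6 genes had a named probe, and the other genes of the list were not looked at. Of these 6, 5 fell and 0 rose (83.3% called, against 6.25% of all features), with a median of -0.73. The 5 that fell are AGL72, AGL71, AGL24, FD and AGL42. AGL72 (AT5G51860), AGL71 (AT5G51870) and AGL42 (AT5G62165) are SOC1-like MADS-box genes that promote the floral transition. AGL72 measured -1.21, -1.03, -1.02 and -1.16 in sets 1 to 4, 12.7-fold lower (-1.10 ± 0.098, adjusted p = 4.58e-04), and all 4 sets lay close together. AGL71 measured -0.80, -0.94, -1.13 and -1.0, 9.28-fold lower (-0.97 ± 0.14, adjusted p = 9.41e-04). AGL24 (AT4G24540), a MADS-box promoter of flowering that AP1 is known to repress in young flowers, measured -0.80, -0.53, -1.11 and -0.90, 6.81-fold lower (-0.83 ± 0.24, adjusted p = 0.00403). It was lowest in set 3 and least changed in set 2.

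FD (AT4G35900), a bZIP partner of the flowering signal FT, was 4.28-fold lower (-0.63 ± 0.087, adjusted p = 0.00198), and -0.40 of this came from day 0 to day 1. AGL42 was 3.85-fold lower (-0.59 ± 0.25, adjusted p = 0.0175), lowest in set 3 at -0.95, and no longer passed without set 1 (adjusted p = 0.0742). The net change of AGL72, AGL71 and AGL24 was spread over the intervals: no interval held more than -0.34 of AGL72, -0.27 of AGL71 or -0.21 of AGL24, and AGL24 passed the test in no single interval. AGL19, the sixth measured gene of the list, was at -0.08 (adjusted p = 0.512). The MADS-box list of 59 measured genes had 4 falls and 0 rises and a median of -0.03, and its 6.78% called is near the 6.25% of all features.

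Of 4 measured genes for the shoot meristem and organ boundaries, 2 fell (50%, against 6.25% of all features called), and the list median was -0.31. PUCHI (AT5G18560), an AP2-type regulator that helps set flower meristem identity, measured -0.87, -0.92, -0.96 and -1.01 in sets 1 to 4. Its fall of 8.72-fold (-0.94 ± 0.059, adjusted p = 4.93e-04) had the smallest SD of the 12 largest falls, and its largest step, -0.48, came from day 1 to day 2. CLV3 (AT2G27250), the peptide that limits the stem cell population, was 3.05-fold lower (-0.48 ± 0.11, adjusted p = 0.00567), with -0.51, -0.36, -0.61 and -0.46 in the sets. Most of that lay after day 3, with interval changes of -0.21 and -0.30, and it no longer passed with the set as a block (adjusted p = 0.108). The boundary genes LOB and LAS measured -0.14 and -0.01 and did not pass.

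Among lists with at least 5 measured genes, the B3-domain list had the highest share of changed members, 88.9% against 6.25% of all features. The list holds only genes whose names matched it, so the share does not describe all B3-domain genes. Of 9 measured, 7 rose and 1 fell, with a median of 0.50. NGA3 (AT1G01030) and NGA2 (AT3G61970), of the NGATHA genes that direct style and stigma formation, rose 17.8-fold and 14.4-fold. NGA3 measured 1.24, 1.42, 1.05 and 1.29 (1.25 ± 0.16, adjusted p = 4.93e-04) and NGA2 measured 1.41, 1.17, 1.02 and 1.03 (1.16 ± 0.18, adjusted p = 8.31e-04). Both were lower in set 3 than in set 2, though NGA2 was highest in set 1. NGA4 (AT4G01500) rose 3.10-fold (0.49 ± 0.083, adjusted p = 0.00403). NGA1 (AT2G46870) rose 2.31-fold (0.36 ± 0.14, adjusted p = 0.0258), but with 0.16 in set 3 it no longer passed without set 1, 2 or 4 (adjusted p = 0.111, 0.109 and 0.0874), under the set block (0.473) or with trended and robust moderation (adjusted p = 0.0933). NGA2 made its largest step from day 1 to day 2 (0.43), NGA3 from day 2 to day 3 (0.50), and NGA4 rose by 0.21 and 0.19 in the last 2 intervals.

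Among the REM genes, the second branch of B3 genes measured here, REM22 was joined by AT5G09780, 8.77-fold higher (0.94 ± 0.21, adjusted p = 0.00203), and AT2G35310, 3.17-fold higher (0.50 ± 0.095, adjusted p = 0.00432). AT5G09780 measured -0.04, 0.04 and -0.03 in the first 3 intervals and rose by 0.38 and 0.59 after day 3, the reverse of REM22. AT4G31620, also a REM gene, was 4.52-fold lower (-0.66 ± 0.14, adjusted p = 0.00307), with -0.60, -0.55, -0.86 and -0.61 in the sets. AT2G16210, the ninth gene, measured 0.58, -1.35, 0.75 and -1.11 (adjusted p = 0.738). Its sign followed the dye orientation of the sets, above 0 in sets 1 and 3 and below 0 in sets 2 and 4.

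Of 9 measured carpel and ovule genes 5 rose and 0 fell (55.6% called, against 6.25% of all features), with a median of 0.31 and 2 genes below 0. Of the 5 that rose, 4 are the NGA genes above. Without set 1 or 2 the count was 3. The fifth, SHI (AT5G66350), a RING-like zinc finger gene that promotes style and stigma formation, was 2.05-fold higher (0.31 ± 0.044, adjusted p = 0.0153). It no longer passed without set 1, 2 or 3 (adjusted p = 0.0767, 0.0649 and 0.0657) or with the set as a block (adjusted p = 0.0575). SPT, a helix-loop-helix regulator of the carpel margin, measured -0.26 (adjusted p = 0.0509).

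On the list for organ growth and polarity 3 of 4 measured genes rose (75%, against 6.25% of all features called), with a median of 0.64. JAG (AT1G68480), a zinc finger gene that drives lateral organ growth, measured 0.67, 0.74, 0.57 and 0.96 in sets 1 to 4, 5.42-fold higher (0.73 ± 0.17, adjusted p = 0.00288). RBE (AT5G06070), a zinc finger gene of petal initiation, measured 0.68, 0.79, 0.75 and 0.40, 4.52-fold higher (0.65 ± 0.17, adjusted p = 0.00443). YAB3 (AT4G00180), a marker of the outer side of organs, was 4.28-fold higher (0.63 ± 0.094, adjusted p = 0.00214). JAG was highest and RBE lowest in set 4. RBE's net change hides a turn, since it rose by 0.52 and 0.58 until day 2 and fell by 0.29 from day 4 to day 5. PHV, of the inner side of organs, measured 0.21 (adjusted p = 0.114). On a separate list for organ identity only UFO had a named probe, and the other genes of that list, such as AP3 and AG, were not looked at. UFO, an F-box gene of petal and stamen identity, measured -0.18 (adjusted p = 0.288) after 0.30 from day 0 to day 1.

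Of 6 stamen genes measured, 2 rose and 0 fell (33.3% called, against 6.25% of all features), with a list median of 0.10 and 3 of 6 above 0. SPL (AT4G27330, SPOROCYTELESS), which starts sporogenous cells, measured 0.35, 0.33, 0.34 and 0.40, a 2.27-fold rise (0.36 ± 0.033, adjusted p = 0.00848). The receptor kinase gene EMS1, needed for the tapetum, rose 1.87-fold (0.27 ± 0.051, adjusted p = 0.026) but no longer passed without any 1 of the sets (adjusted p = 0.0766 to 0.109) or with the set as a block (adjusted p = 0.525). Of 6 pollen genes 0 passed limma's test and 0 had an unadjusted p under 0.05, with values from -0.12 to 0.11.

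Single genes of the stomatal and trichome lists rose. MUTE (AT3G06120), a helix-loop-helix regulator that commits cells to become stomata, measured 1.78, 1.03, 1.48 and 1.70, a 31.6-fold rise (1.5 ± 0.34, adjusted p = 0.00156), lowest in set 2. It measured 0.14, -0.02 and 0.19 until day 3 and then rose by 0.71 and 0.49. TRY (AT5G53200), which represses trichome formation, rose 4.77-fold (0.68 ± 0.11, adjusted p = 0.00193), and 0.37 of this came from day 0 to day 1. Each was the 1 measured gene of its list. On the stomatal list 2 genes had a named probe, and FMA, the FAMA gene of the guard cells, stood at a limit and was left out. On the epidermis and trichome list only TRY had a named probe.

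Hormone genes moved both ways. Of 19 measured auxin genes 3 rose and 3 fell (31.6% called, against 6.25% of all features), with a median of -0.05. GH3.3 (AT2G23170), whose enzyme joins auxin with amino acids, was 6.07-fold higher (0.78 ± 0.12, adjusted p = 0.00139), with 0.79, 0.74, 0.94 and 0.66 in the sets. YUC6 (AT5G25620), of the auxin synthesis pathway, rose 2.60-fold (0.42 ± 0.17, adjusted p = 0.0217), lowest in set 4 at 0.18. AT4G34800, a SAUR gene, rose 2.72-fold (adjusted p = 0.0167). IAA29 (AT4G32280) and IAA31 (AT3G17600), Aux/IAA repressors of the auxin response, were 3.81-fold and 2.95-fold lower (adjusted p = 0.00326 and 0.00588). GH3.17 was 1.90-fold lower (adjusted p = 0.0307), but its 2 probes disagreed, at -0.62 and 0.06. YUC6 no longer passed without set 1, 2 or 3 (adjusted p = 0.099, 0.101 and 0.0871), AT4G34800 without set 1, 2 or 3 (0.0755, 0.0652 and 0.0682) or with the set as a block (0.0646), and GH3.17 without any 1 set (0.0602 to 0.116) or with the block (0.0609).

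Among 8 measured cytokinin genes, the type-A response regulators RR16 and ARR15, which damp the cytokinin signal, moved in opposite directions. RR16 (AT2G40670) measured 1.04, 0.82, 1.12 and 0.79, 8.77-fold higher (0.94 ± 0.16, adjusted p = 0.00132), with 0.67 of it from day 3 to day 4. ARR15 (AT1G74890) measured -0.56, -0.67, -0.61 and -0.61, 4.09-fold lower (-0.61 ± 0.047, adjusted p = 0.00156). Neither passed with the set as a block (adjusted p = 0.0563 and 0.146). The list median was 0.05, and no other member was called, so 25% of the list passed, against 6.25% of all features.

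Sugar transporters also split. SWEET1 (AT1G21460), which carries glucose, measured 1.15, 1.26, 1.55 and 1.28, 20.4-fold higher (1.31 ± 0.17, adjusted p = 4.93e-04). It made 1.00 of this from day 0 to day 1 and measured -0.02 and -0.10 in the last 2 intervals. SWEET4 (AT3G28007) rose 4.38-fold (0.64 ± 0.074, adjusted p = 0.0017), largest from day 4 to day 5 at 0.27. SWEET11 (AT3G48740), which exports sucrose toward the phloem in leaves, was 3.66-fold lower (-0.56 ± 0.16, adjusted p = 0.00671). SWEET4 and SWEET11 no longer passed with the set as a block (adjusted p = 0.0667 and 0.175). These 3 were the changed members among 16 measured (18.75%, against 6.25% of all features), whose median was -0.02.

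Enzyme families held single large changes around medians near 0. Of 50 measured UGT genes, which attach sugars to small molecules, 6 rose and 3 fell, with a median of 0.05. This is 18% called, against 6.25% of all features. UGT76E11 rose 15.4-fold (1.19 ± 0.26, adjusted p = 0.0017), with 1.45, 1.30, 0.85 and 1.15 in the sets, and UGT85A5 rose 4.77-fold (0.68 ± 0.14, adjusted p = 0.00285). UGT73C1 rose 3.78-fold (adjusted p = 0.0125), but not past the threshold without set 1 or 2 (0.0577 and 0.064) or with the set as a block (0.106). The 3 UGT genes that fell were UGT71D1, UGT71C3 and UGT71C5, at -0.46, -0.45 and -0.43, of which UGT71D1 and UGT71C5 did not pass with the block (adjusted p = 0.0916 and 0.188). Of the 3, 2 still passed without set 1 and 1 without set 2, 3 or 4.

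Of 28 expansin and XTH genes, which loosen and rebuild cell walls, 2 rose and 1 fell (10.7% called, against 6.25% of all features). EXPA8 (AT2G40610) rose 4.61-fold, with 0.96, 0.47, 0.33 and 0.89 in the sets (0.66 ± 0.31, adjusted p = 0.0198), and no longer passed without set 1, 2 or 4 (adjusted p = 0.0759, 0.0524 and 0.074). Of 11 autophagy genes 2 fell by small amounts (18.2% called), ATG8G and ATG8B, at -0.28 and -0.26. In this list 11 of 11 lay below 0, with a median of -0.16, against -0.0031 over all features. Neither ATG8G nor ATG8B passed without any 1 set, with adjusted p up to 0.125, or with the set as a block, at 0.316 and 0.409. Of 26 listed cytochrome P450 genes 1 rose (3.85%, below the 6.25% of all features). This gene, CYP71B20, was 4.21-fold higher (0.62 ± 0.28, adjusted p = 0.0189), and it no longer passed without set 2 or 3 (adjusted p = 0.0642 and 0.0796). Of 10 listed WRKY genes 2 fell (20%) and of 12 listed defensin-like genes 2 fell (16.7%), each by less than 2.44-fold. Both counts dropped to 0 or 1 when a set was left out. Of 24 listed signalling peptide genes 2 rose and 1 fell (12.5%, against 6.25% of all features), and 0 passed when any 1 set was left out.

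Of 13 genes for DNA replication and histones, 4 genes of the mitotic cell cycle and 9 tubulin genes, 0 passed limma's test, while 4, 0 and 2 had an unadjusted p under 0.05, against 5392 of all 27073 features (19.9%). The list medians were 0.17, 0.04 and 0.11, with 12 of 13, 3 of 4 and 8 of 9 genes above 0. The highest value, 0.58, was that of the linker histone gene HIS1-3 (adjusted p = 0.0992). The histone H3 genes AT1G09200 and AT5G65360 measured 0.56, -0.18, 0.48 and -0.37, and 0.32, -0.26, 0.87 and -0.22. Both were above 0 in sets 1 and 3 and below 0 in sets 2 and 4, the sets of opposite dye orientation. Of 20 photosynthesis genes 19 lay above 0, with a median of 0.15, against -0.0031 over all features. Only LHB1B2, a light-harvesting protein gene, passed (5% of the list, near the 6.25% of all features). It was 1.93-fold higher (adjusted p = 0.0444). It did not pass without any 1 set (adjusted p = 0.0852 to 0.147) or with the set as a block (0.843), with arrays scaled (0.098) or with trended and robust moderation (0.265). RCA, which activates Rubisco, measured 0.19, 0.24, 0.36 and 0.69 in the sets (adjusted p = 0.0629). Leaf tissue as a source of these values was not tested.

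**Figure D3:**
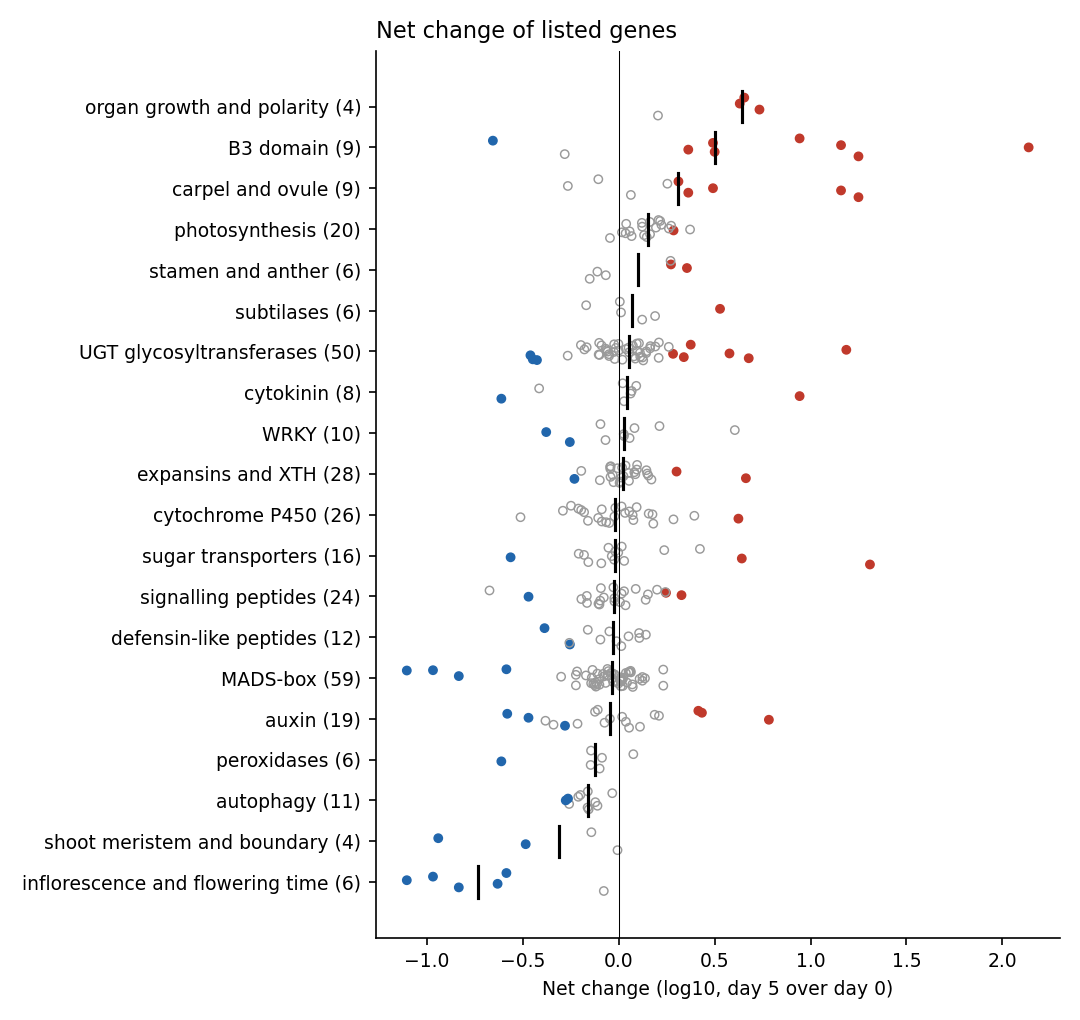
Net change (log10, day 5 over day 0) of listed genes, 1 row per list with at least 4 measured genes and at least 1 call, with the number measured in brackets. Filled points passed the test (red higher, blue lower), open points did not, and the black bar is the list's median. The inflorescence list lies at -0.73 and the organ growth, B3 and carpel lists at 0.64, 0.50 and 0.31, while the larger families centre near 0. The lists were chosen with earlier results of these data known.

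Other genes with a symbol that changed strongly were chosen after their values were seen. Among those that rose, scpl35 (AT5G08260), a serine carboxypeptidase-like gene, measured 0.98, 0.91, 1.46 and 1.28, 14.4-fold higher (1.16 ± 0.26, adjusted p = 0.00183). ACT11 (AT3G12110), an actin gene of reproductive tissue, rose 4.61-fold (0.66 ± 0.17, adjusted p = 0.00429). THI2.1, a thionin gene, rose 6.69-fold (adjusted p = 0.00659), but not with the set as a block (adjusted p = 0.481). FLP1 measured 0.37, 0.60, 1.60 and 0.84 (adjusted p = 0.0457), with most of the rise before day 2, and no longer passed without set 1, 2 or 4 (adjusted p = 0.0586, 0.103 and 0.129) or with a dye term (adjusted p = 0.062).

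Among those that fell, OLEO3 (AT5G51210), an oleosin gene, measured -0.97, -0.84, -0.73 and -0.55, 5.91-fold lower (-0.77 ± 0.18, adjusted p = 0.00278). SHN2 (AT5G11190), an AP2-type activator of cuticle formation, was 5.19-fold lower (-0.72 ± 0.17, adjusted p = 0.00311). WSD1 (AT5G37300), an enzyme that makes wax esters, was 3.67-fold lower (adjusted p = 0.00474), but did not pass with the block (0.12). SHN2 and WSD1 fell mostly from day 0 to day 1, by 0.46 and 0.50. The peroxidase gene Prx37 was 4.09-fold lower and fell by 0.39 in that interval, but no longer passed without set 1 or 2 (adjusted p = 0.0556 and 0.0546).

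Falls came earlier in the course than rises. By day 2, 61.3% of the features that were lower on day 5 had reached 50% of their net change, against 30.1% of those that were higher. By day 1 the shares were 23.2% and 8.48%. In the single sets the share of falls past 50% by day 2 was 50.1%, 69.2%, 38.2% and 69.2% in sets 1 to 4, and the share of rises was 31.3%, 35.3%, 22% and 36.6%. The share was larger for falls than for rises in each of the 4 sets, and lowest for both in set 3. The features and the days come from the same arrays, so this is a description with no test, and with the opposite channel order the earlier group would be the rises.

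The median rise was 0.04, 0.13, 0.24, 0.37 and 0.46 on days 1 to 5, and the median fall -0.12, -0.23, -0.27, -0.36 and -0.40. The interval with the largest step was most often day 0 to day 1 for falls (41.4%) and day 3 to day 4 for rises (30.7%). Few falls made their largest step from day 2 to day 3 (6.8%) or from day 4 to day 5 (8.53%). In the fit to single intervals, over all features, 334 passed as higher and 689 as lower from day 0 to day 1 (1.23% and 2.54% of those tested). The counts were 242 and 157 from day 1 to day 2, 138 and 17 from day 2 to day 3, 317 and 140 from day 3 to day 4, and 198 and 64 from day 4 to day 5. Lower calls thus outnumbered higher ones in the first interval only, while higher calls were also most numerous there, and both had their fewest from day 2 to day 3 (0.51% and 0.0628%). A steady course was not the rule. In 267 of 884 rises (30.2%) and 316 of 809 falls (39.1%) all 5 interval means pointed the way of the net change.

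**Figure D4:**
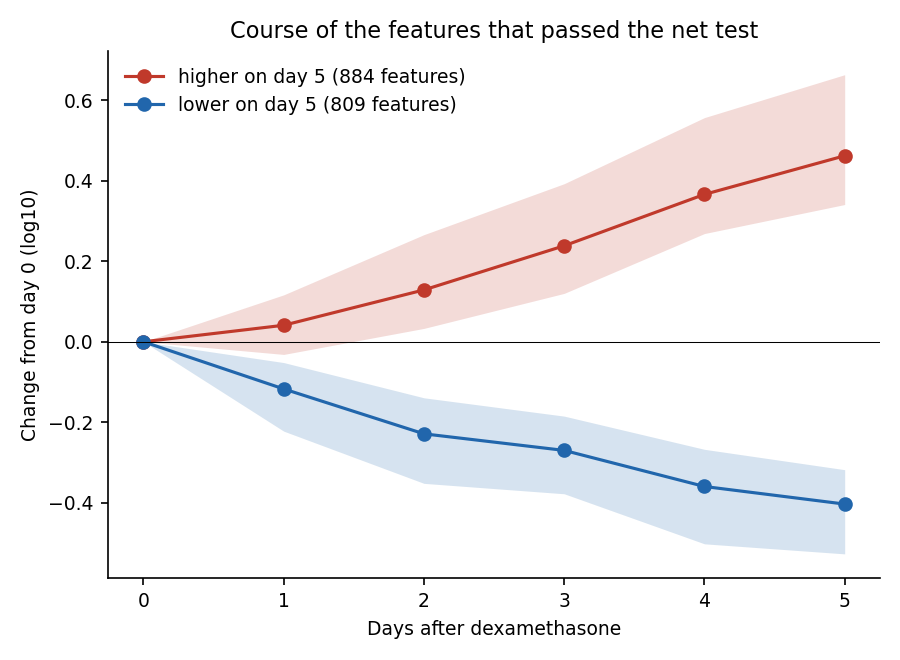
Change from day 0 (log10) against days after dexamethasone for the 884 features that rose and the 809 that fell in the net test. Lines are medians over features and bands run from the 25th to the 75th percentile, so they show the spread among features and not between sets. The falling group reached -0.23 by day 2 of -0.40 on day 5, and the rising group 0.13 of 0.46.

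A net change can hide opposite steps. In the fit to all 20 arrays, 90 features passed as higher in one interval and lower in another, and 45 did so with the set as a block. Of the 90, 60 fell first and then rose and 30 rose first and then fell, while 65 did not pass for net change. The order is that of the largest called steps. Counted separately, 60 of the 90 passed as lower from day 0 to day 1, and whether these are the same 60 was not checked. DFR (AT5G42800), an enzyme of anthocyanin synthesis, measured -0.60, -0.58, -0.09 and -0.21 in sets 1 to 4 from day 0 to day 1 (adjusted p = 0.0125), and 0.69, 0.68, 0.57 and 0.84 from day 3 to day 4 (adjusted p = 1.12e-04). Its net change was 0.69 ± 0.24 (4.86-fold, adjusted p = 0.00847), a call lost with the set as a block (adjusted p = 0.0827).

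AT4G22870 followed the same course as DFR, with -0.50 from day 0 to day 1, 0.83 from day 3 to day 4 and a net change of 0.72 (adjusted p = 0.00576, and 0.136 with the block). AT2G10940 and AT1G66940 also fell by day 1 and ended higher, at 0.71 and 0.55 (adjusted p = 0.00489 and 0.00379, and 0.109 and 0.103 with the block). AT1G06360 and AT1G65110 fell by 0.41 and 0.35 by day 1 and made up for it until day 5, with no net call (0.51 and 0.21, adjusted p = 0.161 and 0.0932). AT5G10970 ran the other way: it rose by 0.71, 0.82, 0.55 and 0.68 by day 1, fell by 0.34 from day 3 to day 4, and stood at 0.04 on day 5 (adjusted p = 0.897). AT5G55430 rose by 0.38 by day 1 and ended at -0.27 (adjusted p = 0.0761).

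**Figure D5:**
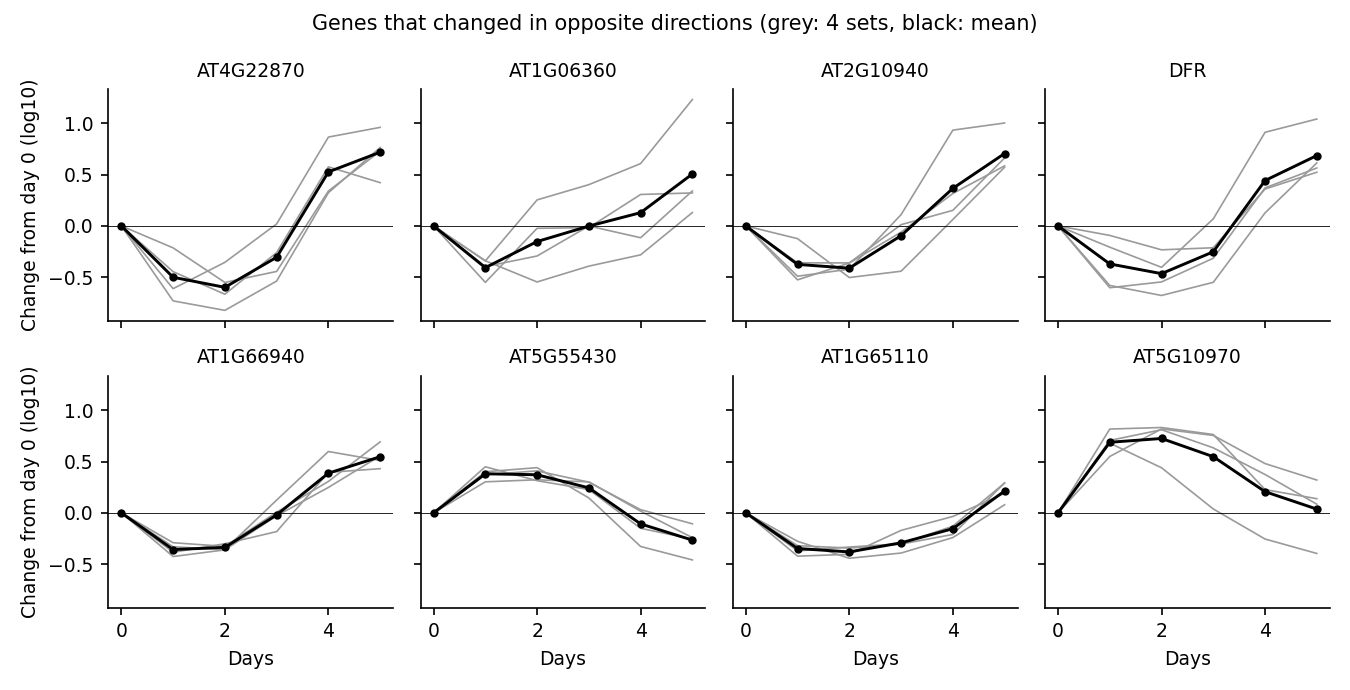
Change from day 0 (log10) against days for the 8 named genes with the largest opposite steps, with the 4 tissue sets in grey and their mean in black. DFR and AT4G22870 dip to -0.47 and -0.60 on day 2 and end at 0.69 and 0.72, and AT5G10970 peaks at 0.73 on day 2 and returns to 0.04.

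Genes next to each other on the chromosome were compared for all measured neighbours. Of 8307 adjacent pairs in the RefSeq gene table (TAIR10.1), both genes changed in 45, or 0.542%. This is a share of pairs and cannot be set against the 5.38% of named genes that changed singly. In 37 of the 45 both moved the same way, 13 pairs higher and 24 lower. Whether these counts differ from those of genes that are not neighbours was not tested. The pair with the largest common change was AGL72 and AGL71, at -1.10 and -0.97. Other pairs of related genes were KIN1 and KIN2, cold-responsive genes, at 0.50 and 0.58, and BGLU45 and BGLU46, of the beta-glucosidase family, at -0.57 and -0.27, though BGLU46 had probes of both signs. With the set as a block, limma's adjusted p was 0.146 and 0.199 for KIN1 and KIN2, and 0.186 and 0.217 for BGLU45 and BGLU46. Signal shared between probes of near-identical genes was not tested. Of the 8 pairs that moved in opposite directions, AT1G27020, the largest fall, lay beside AT1G27030, which measured 0.31 (adjusted p = 0.0168).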

How the data were processed

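The deposited values are log10 ratios of the 2 dyes of each array, read as log10 because they stop at 2 and -2. Per the labels' protocols, dyes (Cy3 or Cy5) were attached to RNA amplified in vitro. The sources used here do not give the scanner software, background correction, normalization, log base, numerator or genome build. The number of arrays limits the precision, since the table gives no signal level. Of 396 empty spots, 77.7% of values stood at the upper limit (76.6% with the later day in Cy5, 78.7% with it in Cy3), so values were taken to follow the dyes.

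Ratios were multiplied by -1 where the later day carried Cy3, and 547 other spots were left out. Probes at a limit on any array were left out, which kept 28457. Names came from the platform annotation, updated through RefSeq (TAIR10.1): 17623 kept probes had 1 gene name, 1 had several and 10833 had none, and 13 of the named kept an older symbol. Probes of a gene were averaged. Of 53 changed genes with several probes, 9 had probes of both signs. A feature needed sums in at least 3 of 4 sets. The fit used limma 3.58.1 in R 4.3.3 (lmFit and eBayes) with 3 residual and 3.704 prior degrees of freedom, and the interval calls used all 20 arrays with 5 interval coefficients and a dye coefficient. On simulated sums of 26887 features with 200 changed, 74% of 5-fold and 34% of 3-fold changes were recovered, 2% of 2-fold ones, and 1 unchanged feature passed. Noise was drawn independently for each feature, with the measured SD of its sums as the true one. Features that vary together were not simulated, so the 1 unchanged feature does not measure false calls in the data. The adjusted threshold depends on how many features change, and 1693 passed in the data. These shares therefore do not measure the recovery in the data, which can be higher.

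The sets are described in the labels as independent, and an array pairs 2 days of 1 set, so the sum within a set uses this pairing. Deviations of consecutive arrays of a set correlated at a median of -0.129 across features, against 0.047 between sets. Alternatives were a dye term, the sum of interval coefficients with and without the set as a block, limits kept, scaled arrays, trended and robust moderation, single probes, complete sums and each set left out.

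Named genes are the 12 largest rises and 12 largest falls with 1 name and 1 sign in every set, up to 3 called genes per list (any member of a list with under 5), and the 8 genes with the largest opposite steps. The other called list members, uncalled list members, neighbours and genes described as chosen after their values were seen fall outside the rule. The members and lists were chosen with earlier results of these data known. Lists were matched by symbol, older symbol or description. Of 16241 named features, 1577 had a symbol other than the locus, so a list holds only the genes whose names matched. In 51 lists, 8 matches that mean another gene were removed. Promoter motifs were not analysed here.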

Additional observations from a re-analysis of the deposited data

Results flagged for a closer look

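In 2 of 99 named genes with 4 complete sums, a set stood apart from the others by Dixon's test at the 95% level, which flags about 1 in 20 groups by chance. SWEET11 measured -0.32 in set 4, against -0.67 to -0.63 in the other sets. AT1G77750, listed with the ribosomal proteins and not called, measured 0.22 in set 4, against -0.10 to -0.04.

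Of the 90 features that passed as higher in one interval and lower in another, the 8 named genes with the largest opposite steps are given here. The genes were chosen for these opposite steps, so a difference between the 2 intervals is a description. From day 3 to day 4 the log10 changes were 0.83 for AT4G22870, 0.46 for AT2G10940, 0.69 for DFR and 0.41 for AT1G66940, after falls from day 0 to day 1. From day 4 to day 5 they were 0.38 for AT1G06360 and 0.37 for AT1G65110, again after early falls. From day 0 to day 1 AT5G55430 rose by 0.38 and AT5G10970 by 0.69, before falls from day 3 to day 4.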

How the results depend on the processing

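The counts moved most with the limits kept, with sets left out and with the source of the error estimate. With probes at the limits kept, 821 features passed (449 higher, 372 lower), 817 of them among the 1693, and the cause was not tested. As the sum of interval coefficients, 1027 passed with no replicate block (557 higher, 470 lower) and 766 with the set as a replicate block (446 higher, 320 lower). Leaving out 1 set left 787 to 1171 calls, 464 to 594 higher and 322 to 577 lower, from fewer sums. The other alternatives gave 1663 to 1821 calls, though not all of the same features. Of the 1693, 1502 passed with a dye term, 1518 with scaled arrays and 1490 with trended and robust moderation. As the sum of interval coefficients, 944 of them passed with no replicate block and 707 with the block. Of the 1693, 1 changed sign with the limits kept and 0 under the other alternatives, except that signs were not compared for single probes. Called list members fell from 48 to between 24 and 33 without a set, and features with every interval in the net direction from 583 to between 281 and 406, which as a share of calls is 34.4% against 31.0% to 37.0%. By list, the ranges without a set were 1 to 1 for stamen rises, 3 to 4 for carpel rises, 1 to 3 for auxin rises, 1 to 2 for cytokinin falls, 2 to 5 for UGT rises, 1 to 2 for UGT falls, 0 to 1 for WRKY falls, 0 to 1 for expansin and XTH rises, and 0 to 0 for expansin and XTH falls, autophagy falls, defensin-like falls and signalling peptide rises and falls. With arrays scaled to 1 spread, defensin-like falls numbered 1. Where the set block ended the call of a gene described, its adjusted p stands beside it, and AT1G27030 was not checked for this. On simulated sums with only 200 changed features, 2% of 2-fold changes were recovered, a share that need not hold for the data. A small change that did not pass is still not shown to be absent.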
